A study of Mus musculus with 4 samples.

Results

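The nuclear-encoded genes of the mitochondrial respiratory chain and ATP synthase were described in motor neuron cultures grown from mouse embryonic stem cells. Members were chosen by the gene name in the table's own name column: symbols beginning with Ndufa, Ndufb, Ndufc, Ndufs or Ndufv and a number, with Uqcr, with Cox4 to Cox8, or with Atp5, and the genes Sdha to Sdhd. The rule found 76 of the 11747 rows of the deposited table: 35 for complex I, 4 for complex II, 8 for complex III, 13 for complex IV and 16 for complex V. The symbols hold some exceptions. Cox4nb, a subunit of a membrane protein complex of the endoplasmic reticulum, is named only for lying next to Cox4i1. Atp5s and Atp5sl are not subunits of ATP synthase, Cox7a2l is a factor of respiratory supercomplexes, and Ndufa4, named for complex I, is now assigned to complex IV. The subunit genes Ndufab1 and Cyc1 were measured, but their symbols are not of these forms. Atp5j and Ndufs5 were measured too, but the table names their rows only by RefSeq accession, so the rule, applied to the table's names, did not take them.

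The respiratory chain moves electrons from NADH (through complex I) and succinate (through complex II) to ubiquinone, then through complex III and cytochrome c to oxygen at complex IV. Complexes I, III and IV pump protons out of the matrix, and complex V, the ATP synthase, lets them flow back while it makes ATP. Most subunits are encoded in the nucleus and imported, and they assemble with subunits encoded in mitochondrial DNA. Neurons depend on this pathway for much of their ATP. The genes encoded in mitochondrial DNA are not analysed here.

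The cells carry a doxycycline-inducible transgene for a transcription factor, in a line derived from the A172LoxP embryonic stem cell line. All 4 libraries came from embryoid bodies, which are free-floating aggregates of stem cells, given all-trans retinoic acid at 0.5 µM and the sonic hedgehog agonist purmorphamine at 1 µM for 2 days. The bodies then received doxycycline at 2 µg/mL (transgene on, 2 libraries) or vehicle (transgene off, 2 libraries) for a further 2 to 3 days. The comparison asks which genes change when the transgene is on. No library had doxycycline without the transgene, so the drug and the induced factor cannot be told apart. As background, doxycycline inhibits the mitochondrial ribosome. Both groups share 1 cell line, and the labels name no separate cultures, so p-values measure only how much these 4 libraries varied, and that variation may be technical.

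Values were the authors' normalized read counts. The libraries are called here by the numbers in the table's headings: 1 and 7 without doxycycline, 2 and 8 with it. Their totals were between 26449555 and 27047458 normalized counts, and the smallest step between values puts the reads behind them at 22434751 to 30235772 a library. A difference is log2(normalized count + 1) with minus without doxycycline, ± its standard error (SE), from limma with Benjamini-Hochberg adjustment over all 11747 rows and a threshold of 0.05. On this scale 278 rows passed (2.37%), 68 of them higher with doxycycline (0.579%). The labels call the cells motor neurons, and all 6 motor neuron markers were listed. Of these, 5 fell past the adjusted threshold and Lhx3 did not pass (0.55 ± 0.17). The summed motor neuron markers were 10642 and 10101 normalized counts without and 4830 and 4062 with doxycycline. All 7 listed general neuron markers had differences below 0, and 6 of them passed the adjusted threshold. Their sums went from 95087 and 85062 to 48041 and 39153. The 5 markers of proliferating cells summed to 31428 and 36377 without and to 41137 and 42761 with doxycycline, and none passed. All 4 listed glial markers had differences above 0, and 1 of them, Slc1a3, passed. The list summed to 2280 and 2641 without and to 3341 and 3498 with doxycycline. In bulk RNA, fewer cells of a type and less RNA per cell cannot be told apart. How these shifts in cell markers bear on the values below was not tested.

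Beside those falls in neuronal markers, the differences of the respiratory chain genes were small. Of the 76 members, 1 rose past the adjusted threshold, Cox6b2, and 0 fell, beside 2.37% of all rows called in either direction and 0.579% called higher. At an unadjusted p in limma under 0.05 there were 6 members, 5 higher and 1 lower, beside a background of 21.1% of all rows. The groups did not overlap in 29 of 76 members (38.2%), 18 with doxycycline above and 11 below, where the background over all rows was 53.2%. The median difference was 0.01 over the members and 0.00 over all rows.

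The members' differences were also small and closely bounded. Their median absolute difference was 0.062, where all rows had 0.129 and the 6453 rows with a mean of at least 900 normalized counts had 0.106. A total of 74 of 76 members lay within 0.25 of 0 on the log2 scale (97.4%), compared with 76.0% of all rows and 84.0% of the rows with a mean of at least 900. The 95% interval of the difference lay wholly within a 1.5-fold change in either direction for 74 of 76 members, the exceptions being Cox6b2 and Atp5s. The same held for 74.7% of all rows and 89.9% of the rows with a mean of at least 900. Without doxycycline the members took 1.22% (library 1) and 1.16% (library 7) of all normalized counts. With it they took 1.22% (library 2) and 1.18% (library 8), so their summed share overlapped between the groups. The shares of complexes I, II, IV and V overlapped too. That of complex III did not, at 0.105% and 0.102% without and 0.111% and 0.108% with doxycycline, where single genes did not overlap in 53.2% of all rows.

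**Figure D1:**
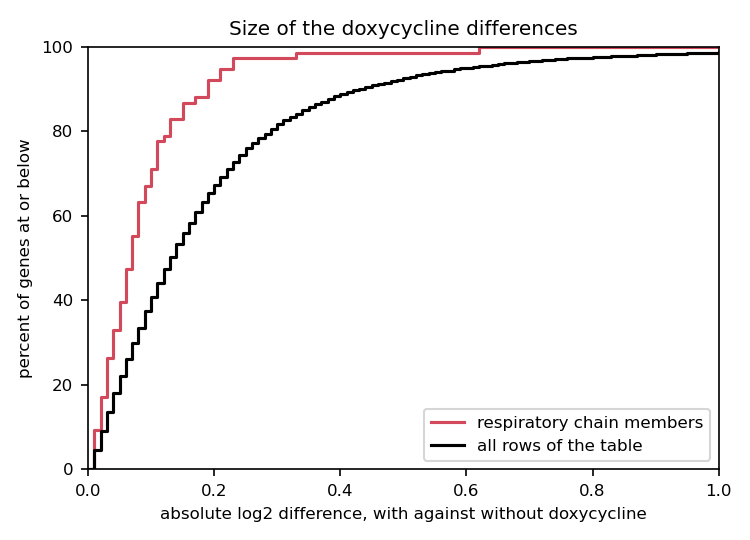
Cumulative percentage of genes (vertical axis) whose absolute log2 difference between doxycycline and vehicle is at or below the value on the horizontal axis, for the 76 respiratory chain members and for all 11747 rows. The members' curve lies to the left: 97.4% of members and 76.0% of all rows are within 0.25.

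**Figure D2:**
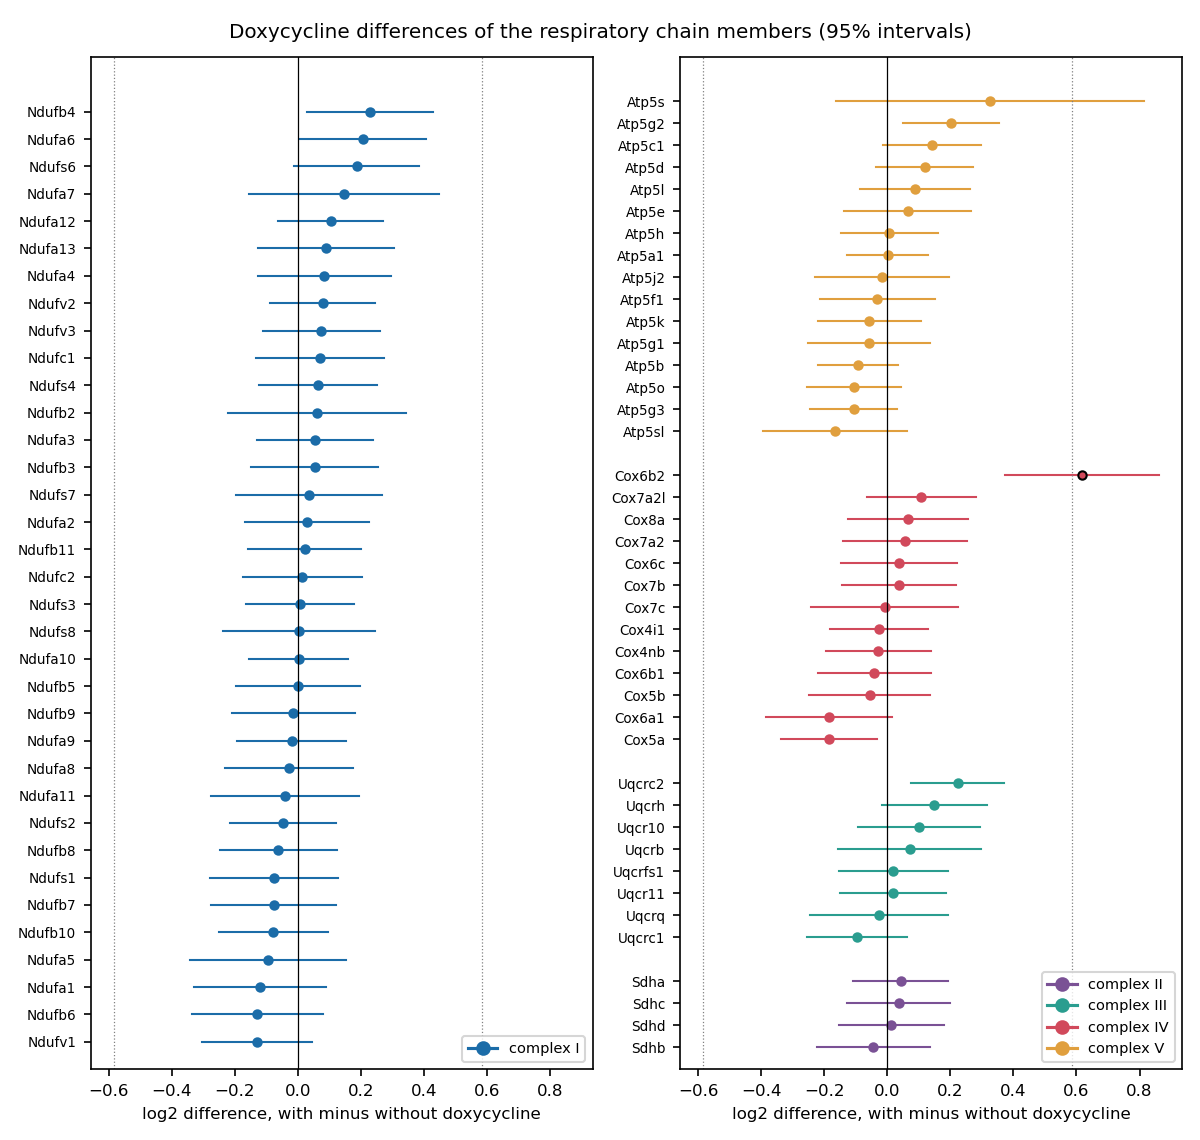
Log2 difference with minus without doxycycline for each of the 76 members, grouped by complex. Points are limma estimates with 95% intervals, the black ring marks the member with an adjusted p under 0.05, and dotted lines mark a 1.5-fold change. Cox6b2 stands apart at 0.62, and Atp5s has the widest interval.

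The members differed between libraries of the same treatment by at least as much as between the groups. Library 7 was below library 1 in 61 of 76 members (80.3%), with a median of -0.07, while 51.9% of all rows were lower. Library 8 was below library 2 in 50 of 76 members (65.8%), with a median of -0.05, while 51.6% of all rows were lower. By complex, the downward step from library 1 to 7 was seen in 31 of 35 members of complex I, 12 of 13 of complex IV, 11 of 16 of complex V, 5 of 8 of complex III and 2 of 4 of complex II. The median difference between library 2 and library 1 was -0.00, and that between library 8 and library 7 was 0.03. The median over the members was -0.03 without library 7 and 0.06 without library 1, so no direction is given for the set.

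**Figure D3:**
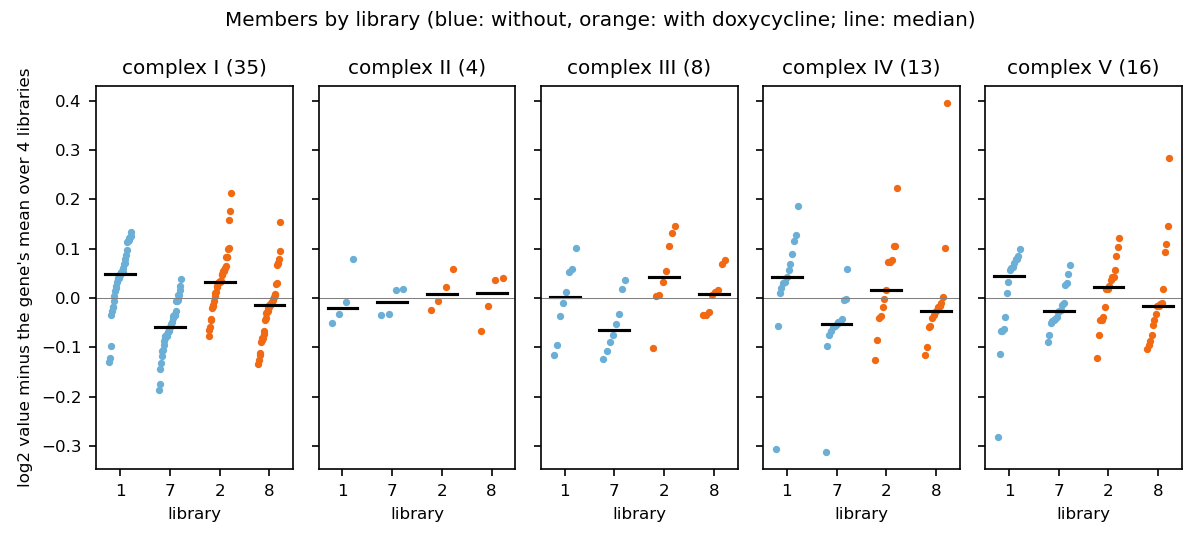
Each member's log2 value in each library minus its mean over the 4 libraries, by complex, with the number of members in parentheses. Blue points are libraries without and orange points libraries with doxycycline, and black lines are medians. In complexes I, III, IV and V the medians of libraries 7 and 8 lie below those of libraries 1 and 2 respectively.

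Complex I, the NADH dehydrogenase, had a median difference of 0.01 over its 35 members, with 22 above 0 and 13 below. None passed the adjusted threshold. The 7 core members, which hold the flavin, the iron-sulfur clusters and the quinone site, had a median of 0.00 and ran from -0.13 (Ndufv1) to 0.08 (Ndufv2). Ndufv1, which carries the flavin where NADH is oxidized, read 3674 and 3390 without and 3273 and 3181 with doxycycline. The groups did not overlap, but the difference of -0.13 ± 0.07 had an adjusted p of 0.358. in limma Ndufs1, the largest core subunit, read 3565 and 3568 without and 3615 and 3164 with doxycycline, and its groups overlapped. The 27 accessory members had a median of 0.02. At their upper end stood Ndufb4, a subunit of the membrane arm, with 933 and 942 normalized counts without and 1133 and 1066 with doxycycline. Its groups did not overlap, and its difference of 0.23 ± 0.08 had an unadjusted p of 0.0307 and an adjusted p of 0.190. in limma The accessory subunit Ndufa6 read 1779 and 1847 without and 2201 and 1988 with doxycycline, a difference of 0.21 ± 0.08 with an adjusted p of 0.224. in limma Ndufs6, which binds zinc, read 1178 and 1186 without and 1290 and 1402 with doxycycline (0.19 ± 0.08, adjusted p = 0.262 in limma). In Ndufb4, Ndufa6 and Ndufs6 both doxycycline libraries lay above both others. Ndufb2 was the complex I member with the widest gap inside a group, at 1159 in library 1 and 948 in library 7, and its doxycycline values of 1113 and 1075 fell between them. Ndufab1, the acyl carrier protein outside the rule, gave 0.11 ± 0.07, and Ndufs5, whose row also names a pseudogene, gave -0.07 ± 0.10.

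Complex II, the succinate dehydrogenase, is also an enzyme of the tricarboxylic acid cycle and is wholly nuclear-encoded. Its 4 members were the closest to 0, from -0.04 to 0.04, and the groups overlapped in all 4. Sdha, the flavoprotein, read 6693 and 6580 without and 7012 and 6655 with doxycycline. Sdhb, the iron-sulfur subunit, read 4358 and 4031 without and 4190 and 3940 with doxycycline. The membrane anchors gave 0.04 ± 0.07 (Sdhc) and 0.01 ± 0.07 (Sdhd). The 95% intervals of all 4 lay within a 1.5-fold change.

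Complex III, the cytochrome bc1 complex, had a median difference of 0.05 over 8 members, 6 of them above 0. Its 2 core proteins, which face the matrix and do not carry redox groups, lay at opposite ends. Uqcrc2 read 6052 and 6083 normalized counts without and 7254 and 6915 with doxycycline, and the groups did not overlap. Its difference of 0.22 ± 0.06, a ratio of 1.17 with a 95% interval from 1.05 to 1.29, had an unadjusted p of 0.0101 and an adjusted p of 0.122. in limma Uqcrc1 read 7748 and 7623 without and 6929 and 7468 with doxycycline, also without overlap, at -0.10 ± 0.06 (adjusted p = 0.453 in limma). The hinge protein gene Uqcrh read 4854 and 4997 without and 5683 and 5248 with doxycycline (0.15 ± 0.07, adjusted p = 0.280 in limma). The Rieske iron-sulfur protein, Uqcrfs1, gave 0.02 ± 0.07 with overlapping groups. Uqcrq, a small subunit, had the widest gap between libraries 1 and 7 relative to its level, 1418 against 1255, and read 1325 and 1296 with doxycycline. Cyc1, cytochrome c1, which the rule did not take, gave -0.06 ± 0.08.

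Complex IV, cytochrome c oxidase, held the one member that passed. Its nuclear-encoded subunits surround a catalytic core made in mitochondria, and several exist as paired isoforms used in different tissues. Cox6b2 encodes the isoform of subunit 6B known from testis, and Cox6b1 the one used in most other tissues. Subunit 6B lies on the side of the complex facing the intermembrane space, where cytochrome c docks. Cox6b2 read 549 and 547 normalized counts without doxycycline and 792 and 893 with it. The doxycycline libraries were both above the others, and the gap between the groups was larger than the gap inside either. The difference was 0.62 ± 0.10, a ratio of 1.53 with a 95% interval from 1.30 to 1.82, with an adjusted p of 0.0455. in limma Among the 68 rows called higher, Cox6b2 ranked 43 by size. The call was close to the threshold. With libraries 1, 2, 7 or 8 left out, the adjusted limma p was 0.0954, 0.0859, 0.0504 and 0.208, with differences of 0.53 to 0.70, and without the intensity trend it was 0.0760. An exact permutation test of 2 libraries against 2 cannot give a two-sided p below 0.33. Beside this rise, the neuron markers summed lower and the glial and proliferation markers summed higher with doxycycline, as given above; their part in it was not tested.

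The paralogue Cox6b1 did not pass. It read 5797 and 5273 without and 5514 and 5240 with doxycycline, with overlapping groups and a difference of -0.04 ± 0.07. Its 95% interval, up to a ratio of 1.10, did not reach the lower bound of that of Cox6b2, although the difference between the genes was not itself tested. Per kilobase of coding sequence, Cox6b2 made up 8.47% and 9.20% of the summed level of both genes without and 12.3% and 14.3% with doxycycline. Per kilobase of transcript the shares were 9.32% and 10.1% without and 13.5% and 15.6% with doxycycline. The transcripts of both genes share no run longer than 14 bases, and Cox6b2 shares no stretch of 50 bases with any other annotated transcript. Suv420h2, the neighbouring listed gene, gave 0.01 ± 0.07.

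The promoter windows of both subunit 6B genes are shown here because Cox6b2 passed the adjusted threshold and Cox6b1, at a higher level, did not. Each runs from 250 bases before to 50 bases after the transcription start in RefSeq's annotation of mouse build GRCm38.p6, which is not the build of the deposited table. Both lie on the minus strand of chromosome 7, Cox6b2 at chr7:4753045-4753344 and Cox6b1 at chr7:30626065-30626364.
Cox6b2: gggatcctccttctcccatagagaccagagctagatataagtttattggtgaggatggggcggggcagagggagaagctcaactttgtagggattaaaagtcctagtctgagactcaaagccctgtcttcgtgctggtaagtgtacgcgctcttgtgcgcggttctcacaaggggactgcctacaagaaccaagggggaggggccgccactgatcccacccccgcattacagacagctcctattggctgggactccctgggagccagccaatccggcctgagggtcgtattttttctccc
Cox6b1: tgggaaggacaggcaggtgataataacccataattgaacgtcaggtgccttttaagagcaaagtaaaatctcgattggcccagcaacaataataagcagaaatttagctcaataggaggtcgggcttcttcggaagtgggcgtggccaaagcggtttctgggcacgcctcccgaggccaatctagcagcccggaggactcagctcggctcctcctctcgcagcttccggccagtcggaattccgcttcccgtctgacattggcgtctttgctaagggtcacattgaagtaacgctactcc
The Cox6b2 window holds 10 CG dinucleotides and that of Cox6b1 holds 17, where the 64 members with a window had a median of 19 and a range of 5 to 39. Only 2 of those members had fewer than Cox6b2. How the CG counts bear on the levels or differences of these genes was not tested.

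The other members of complex IV had differences from -0.19 to 0.11. Cox5a, which binds a thyroid hormone metabolite and lies on the matrix side, read 5316 and 5066 without and 4587 and 4539 with doxycycline. Both doxycycline libraries were below the others, and the difference of -0.19 ± 0.06 had an unadjusted p of 0.0244 and an adjusted p of 0.173. in limma Cox6a1, the general isoform of subunit 6A, read 7051 and 6187 without and 5679 and 5943 with doxycycline. Its groups did not overlap either, at -0.19 ± 0.08 (adjusted p = 0.267 in limma), and the gap between libraries 1 and 7 was larger than that between library 7 and library 8. Cox4i1, the general isoform of subunit 4 and the most abundant complex IV member per kilobase of transcript, gave -0.03 ± 0.06 with overlapping groups. Cox7a2, the general isoform of subunit 7A, gave 0.06 ± 0.08, Cox8a gave 0.06 ± 0.08, and Cox7c gave -0.01 ± 0.09. Ndufa4 read 5126 and 4522 without and 5319 and 4894 with doxycycline (0.08 ± 0.09). Cox7a2l read 2533 and 2539 without and 2832 and 2638 with doxycycline, at 0.11 ± 0.07 (adjusted p = 0.435 in limma). The tissue-restricted or hypoxia-linked isoform genes Cox4i2, Cox6a2, Cox7a1, Cox8b and Ndufa4l2 had no row in the table. The least counted row of the table reached an estimated 101 reads in its highest library, so a gene without a row has no value here, and nothing is read from it.

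**Figure D4:**
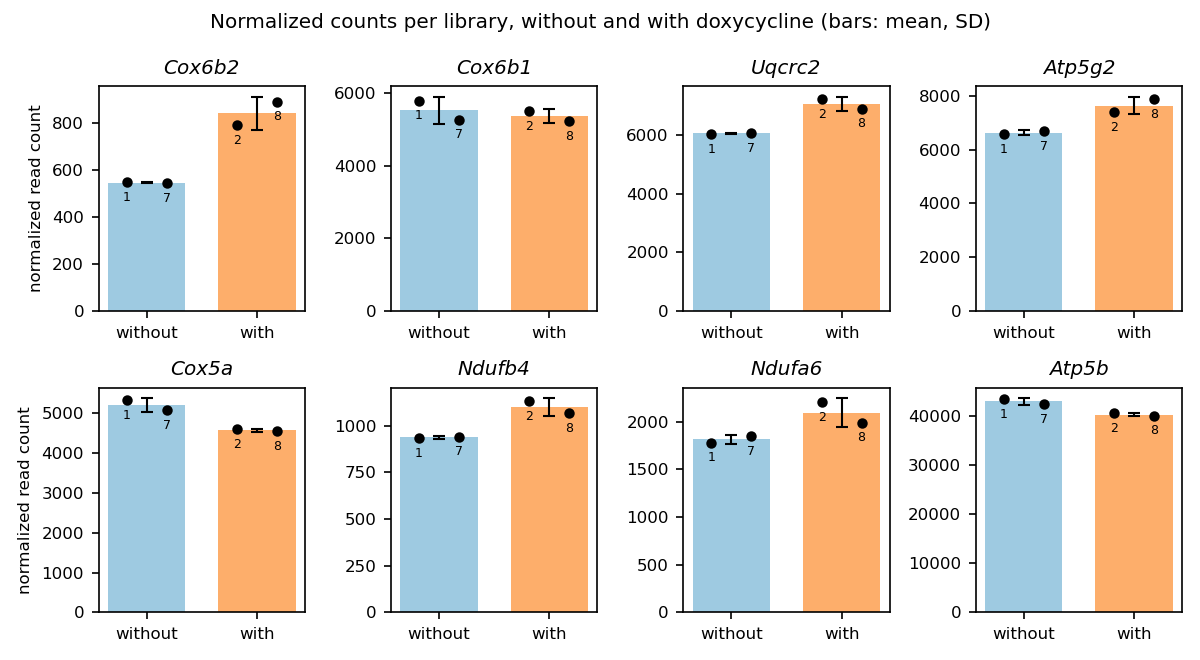
Normalized read counts of 8 members in libraries 1 and 7 (without) and 2 and 8 (with doxycycline). Points are libraries, bars are means and error bars are SD with n = 2. Cox6b2 goes from 549 and 547 to 792 and 893, Cox6b1 overlaps between the groups, and Uqcrc2, Atp5g2, Cox5a, Ndufb4, Ndufa6 and Atp5b separate by smaller ratios.

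Complex V, the ATP synthase, had a median of -0.01 over 16 members, 8 above 0 and 8 below. The groups did not overlap in 9, beside the background of 53.2%. In the catalytic F1 head, Atp5a1 (subunit alpha) read 32078 and 31647 without and 32269 and 31494 with doxycycline, a difference of 0.00 ± 0.05. Atp5b (subunit beta) was the highest member of all, at 43330 and 42395 without and 40418 and 39974 with doxycycline. Its groups did not overlap, and the difference was -0.09 ± 0.05 (adjusted p = 0.370 in limma). Atp5c1, the rotating gamma shaft, read 7570 and 7530 without and 8632 and 8028 with doxycycline (0.14 ± 0.06, adjusted p = 0.275 in limma). The F1 genes thus had both signs, with a median of 0.06 over 5. The 3 stalk genes had a median of -0.03 and the 3 small membrane genes one of -0.02.

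Subunit c, the proton-carrying ring, is made from 3 genes whose mature proteins are the same, since they differ in the import sequence that is cut off. Atp5g2 read 6581 and 6688 without and 7405 and 7870 with doxycycline, at 0.20 ± 0.06 with an unadjusted p of 0.0175 and an adjusted p of 0.151. in limma Atp5g3 read 9208 and 9161 without and 8402 and 8660 with doxycycline, at -0.11 ± 0.06 (adjusted p = 0.341 in limma). Atp5g1 overlapped between the groups, at 3884 and 3590 without and 3756 and 3425 with doxycycline. Per kilobase of coding sequence, Atp5g2 made up 32.4% and 33.4% of the 3 genes' summed level without and 36.8% and 38.4% with doxycycline. The share of Atp5g3 went from 47.0% and 47.4% to 43.2% and 43.7%, and that of Atp5g1 from 20.6% and 19.2% to 20.0% and 17.9%. The shares of Atp5g2 and Atp5g3 did not overlap between the groups on this scale. The same held per kilobase of transcript, which rescales the same counts, where Atp5g2 went from 38.5% and 39.2% to 43.5% and 44.5%. The shares of a library add up to the whole, so a rise in that of Atp5g2 lowers the others. As background, the values of single genes did not overlap between the groups in 53.2% of all rows. No gene of the 3 passed the adjusted threshold. Of the 50-base stretches of Atp5g2, 87.4% also occur in the annotated transcripts of other genes, Gm10175 and Gm10231, so its count depends on how such reads were assigned.

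**Figure D5:**
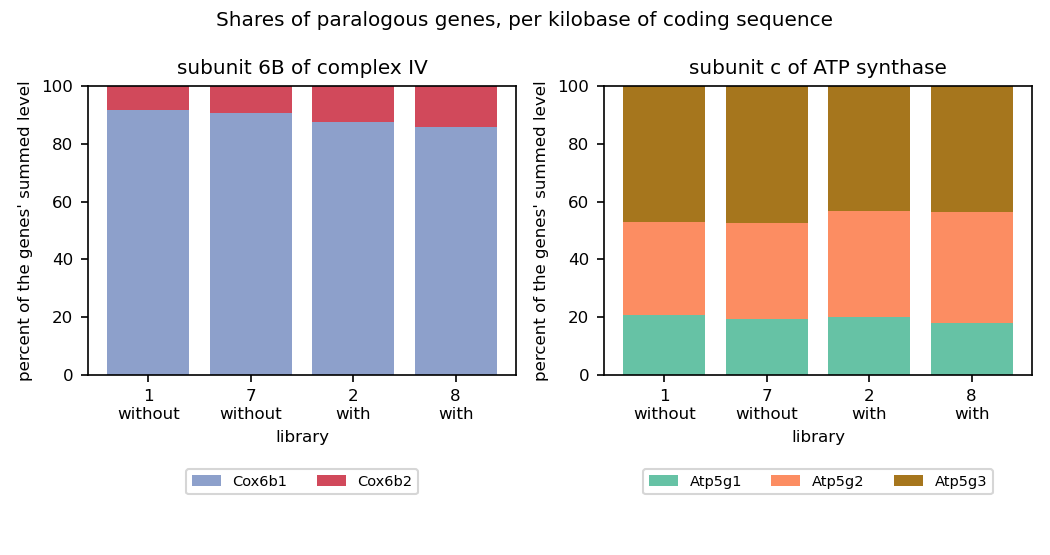
Share of the summed level, per kilobase of coding sequence, of each gene for subunit 6B (left) and subunit c (right), by library. The Cox6b2 share is 8.47% and 9.20% without and 12.3% and 14.3% with doxycycline, and the Atp5g2 share is 32.4% and 33.4% without and 36.8% and 38.4% with it.

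Atp5s, the coupling factor B gene, was the lowest member, at 110 and 130 without and 138 and 163 with doxycycline. Its difference of 0.33 ± 0.20 had an adjusted p of 0.406 in limma, and it is the second member whose interval reaches beyond a 1.5-fold change. It rested on an estimated 117 to 185 reads a library, where Cox6b2 had 509 to 1012. Atp5sl, an assembly factor of complex I despite its symbol, read 623 and 609 without and 534 and 564 with doxycycline (-0.17 ± 0.09, adjusted p = 0.369 in limma).

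Median transcript levels differed far more between complexes than between the groups, and levels ranged widely inside most complexes. Per kilobase of coding sequence, the median level over members was 4532 normalized counts in complex I, 5109 in complex II, 5720 in complex III, 13115 in complex IV and 11611 in complex V. On that scale levels ran from 1595 to 20185 in complex I, where Ndufa4 was highest, and from 3381 to 5936 in complex II. They ran from 2980 to 19459 in complex III, 2633 to 21148 in complex IV and 225 to 26168 in complex V. The ranges of the members as grouped by symbol thus overlapped, in part through the exceptions named at the start. Without Atp5s and Atp5sl, which are not subunits, complex V ran from 8469 (Atp5d) to 26168, above all of complex II. Without Ndufa4, the highest complex I member was Ndufa7 at 8994, so complexes I and V overlapped only narrowly. Per kilobase of transcript the medians were 2365, 2195, 3908, 5896 and 6053, so the order of complexes I and II, and that of IV and V, depends on the length used, and the order of the other pairs does not. Atp5b was highest on both scales, at 26168 per kilobase of coding sequence and 21675 per kilobase of transcript. Atp5s was lowest on both, at 225 and 91.1. Whether reads were counted over whole transcripts or coding sequence is not stated in the labels or the table.

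Expression of many respiratory chain genes is known to be driven by the factors NRF-1 and GABP (an ETS factor) and by YY1. Their core motifs were searched on both strands in the 64 members with a promoter window, as GCATGCGC for NRF-1, CCGGAAGT for ETS and AAGATGGCG for YY1, none of which contains another. NRF-1 letters were in 10 windows (15.6%), as against 6.43% of 9327 listed genes with a window and 3.05% of all 27025 genes in the promoter table. YY1 letters were in 7 (10.9%), as against 3.76% and 1.64%. ETS letters were in 5 (7.81%), as against 9.46% and 4.31%. The 21 members with any of the motifs had a median difference of 0.01 and the 43 without had 0.02. Differences ran from -0.19 to 0.21 with a motif and from -0.19 to 0.62 without. Of the 6 members with the smallest p, Cox5a and Ndufb4 have windows with none of the 3 motifs, and Uqcrc2 has no window. Atp5g2 and Ndufa6, also among these 6, are shown with the NRF-1 letters in capitals. Both lie on the minus strand of chromosome 15, Atp5g2 at chr15:102670998-102671297 and Ndufa6 at chr15:82354242-82354541.
Atp5g2: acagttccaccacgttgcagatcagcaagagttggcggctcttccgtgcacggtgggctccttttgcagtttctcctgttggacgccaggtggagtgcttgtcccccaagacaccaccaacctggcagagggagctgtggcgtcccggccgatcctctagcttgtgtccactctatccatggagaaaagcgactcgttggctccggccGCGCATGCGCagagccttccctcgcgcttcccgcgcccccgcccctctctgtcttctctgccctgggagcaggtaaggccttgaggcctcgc
Ndufa6: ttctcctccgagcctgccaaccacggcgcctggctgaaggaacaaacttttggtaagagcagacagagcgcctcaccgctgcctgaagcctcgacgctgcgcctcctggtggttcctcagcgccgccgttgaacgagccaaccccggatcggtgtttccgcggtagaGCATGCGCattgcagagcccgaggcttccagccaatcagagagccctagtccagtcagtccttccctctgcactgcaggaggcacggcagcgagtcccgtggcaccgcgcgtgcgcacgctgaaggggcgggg
In Atp5g2 the capitals cover a pair of overlapping matches, one on each strand. The Cox6b2 and Cox6b1 windows printed above hold none of the 3 motifs. These matches describe the letters of the windows only.

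The genes of the regulators themselves were listed for the most part. Nrf1 read 1812 and 1745 without and 1786 and 1726 with doxycycline, and Gabpa read 1371 and 1445 without and 1468 and 1477 with doxycycline. Esrra, a nuclear receptor that drives mitochondrial genes, gave -0.03 ± 0.08. Of the 12 regulators listed, 0 passed in limma and 1 had an unadjusted p under 0.05 (21.1% of all rows did): Myc, at 516 and 465 without and 380 and 378 with doxycycline (-0.37 ± 0.11, adjusted p = 0.143 in limma). The coactivator genes Ppargc1a and Ppargc1b had no row.

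In the other 5 lists of the pathway, too, 0 genes passed the adjusted limma threshold. The counts at an unadjusted p under 0.05 below are to be set beside 21.1% of all rows, and those above 0 beside 50.6% of all rows. No list's share at that p exceeded that of all rows, and the genes are named as a description. The assembly factors, which insert cofactors and join modules of the complexes, had 34 of 53 genes listed, 25 above 0, a median of 0.04, and 2 with an unadjusted p under 0.05. Those were Ndufaf4 (597 and 537 without, 793 and 642 with doxycycline) and Tmem70, which acts in ATP synthase assembly (643 and 647 without, 782 and 733 with doxycycline). The tricarboxylic acid cycle, which feeds electrons to the chain, had all 19 genes listed, 6 above 0, a median of -0.03, and 1 with an unadjusted p under 0.05. That was Suclg2, of succinyl-CoA synthetase, at 1150 and 1439 without and 1562 and 1755 with doxycycline. Genes that replicate and transcribe mitochondrial DNA had 15 of 18 listed, a median of 0.04, and 1 at that p, Ssbp1 (0.20 ± 0.07). Within this list Tfam, which packages mitochondrial DNA, gave 0.02 ± 0.07 and Polrmt, the RNA polymerase, -0.19 ± 0.08. The carriers and cytochrome c had 22 of 24 listed and a median of 0.00, with 1 at that p, the ubiquinone synthesis gene Coq2 (1340 and 1350 without, 1555 and 1620 with doxycycline). Import and cristae genes had 27 of 29 listed, 20 above 0 and a median of 0.04. Of these 5 had an unadjusted p under 0.05: Timm8a1, Apool, Tomm7 and Chchd3 above 0, and Immt, which holds the cristae junctions, at 5650 and 5844 without and 5223 and 4968 with doxycycline (-0.17 ± 0.06).

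Glycolysis and hypoxia genes, an alternative route to ATP, were set beside the chain. Of the 13 of 16 listed, 12 were above 0, as were 50.6% of all rows, with a median of 0.30. None passed in limma, and 3 had an unadjusted p under 0.05 (Hk2, Slc2a1 and Aldoa), a share near the 21.1% of all rows, so these names are no result about the list. Hexokinase 2 (Hk2) read 1423 and 1826 without and 2266 and 2239 with doxycycline, an adjusted p of 0.114. in limma The list summed to 60845 in library 1 and 83836 in library 7, and to 89755 and 95009 in libraries 2 and 8, so libraries 1 and 7 differed more from each other than library 7 did from library 2.

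Counting limits bear on part of the set. Of the 76 members, 20 share at least 10% of their 50-base stretches with another annotated transcript, as many small subunits have processed pseudogenes, and 27 have an exon that overlaps another gene. The median difference was 0.01 in those 20 and 0.01 in the other 56. Ndufb4 shares 37.0% of its stretches, so its value is uncertain in the same way as that of Atp5g2. The 20 also hold Cox7c (53.0%), Ndufb2 (24.4%), Cox7a2l (17.8%), Cox6a1 (12.3%), Ndufs6 (12.2%) and Atp5g1 (10.5%), whose values are given above. Among the 27 with an exon overlap are Uqcrc2, Cox5a and Ndufs6, each with a gene on the opposite strand. Atp5g2 is another, with a gene on the same strand. Cox6b2, Ndufb4 and Ndufa6 are not among them. Whether counting used strand is not stated, so what these overlaps add to the counts is not known.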

How the data were processed

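RNA-seq libraries (Illumina TruSeq) were made from total RNA of 2 groups of 2 libraries. Per the submitters' processing notes the tools were CASAVA, TopHat2, HTSeq and DESeq, with no versions, and the build was mm9. The deposited signal values are normalized read counts per gene, that is, gene counts divided by a library factor, which the sources used here do not give. Whether counting used strand is not stated.

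Column headings give the group and a number that is not the labels' replicate number, so libraries were assigned to groups only. Values were tested as log2(value + 1) with limma 3.58.1 in R 4.3.3, with an intensity trend, Benjamini-Hochberg adjustment and a threshold of 0.05, after testing the steps on simulated data. With 2 residual degrees of freedom, limma borrowed 3.83 from other genes. A minimum row mean of 10 removed 0 rows. Symbols came from the table (11335 rows) or by RefSeq match (403), and 9 rows had none. Transcript and coding lengths came from GENCODE M21 (76 of 76 members matched), promoter windows from RefSeq (64 matched).

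Members and lists were chosen with earlier results of these data known. Named genes were members past the threshold, the 3 with the smallest p and the extremes of each complex, a panel of isoforms, the members with the widest gap between libraries of a group, and up to 3 genes of each other list; further members are named beside them by role, with values seen. Alternatives were other pseudocounts, filters, scalings and limma settings, each library left out, a block on the column number, and other member sets. The neural progenitor, pluripotent, and endoderm and mesoderm marker lists had 0 genes past the threshold. In libraries 1, 7, 2 and 8, the 4 listed pluripotent markers summed to 1737, 842, 1540 and 719. The 7 listed endoderm and mesoderm markers summed to 8724, 12729, 6957 and 12236, and the 6 progenitor markers to 31581, 32646, 31895 and 35597. How these steps between libraries bear on those of the members was not tested. The induced gene is not reported here.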

Additional observations from a re-analysis of the deposited data

How the results depend on the processing

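With 2 libraries a group, 1 library decides much. The count of members called higher was 0 to 0 with each library left out and 0 without the intensity trend; the other settings of pseudocount, filter, scaling and robust fitting gave 1. The members' median difference ranged from -0.0302 to 0.0551 with each library left out, and under quantile normalization it was 0.043, where the median of all rows was 0.016. With a replicate block on the column numbers, 8 members were higher and 2 lower (13.2% of members, beside 29.9% of all rows); these numbers are no label of a pairing, deviations within number pairs correlated at 0.63 (with 2 libraries a group the crossed pairs give -0.63 by construction), and the block leaves 1 residual degree of freedom. Adding Atp5j and Ndufs5, chosen after seeing the data, left the median at 0.01. Over all rows, calls higher and lower were 33 and 100 without library 1, 16 and 97 without library 2, 156 and 338 without library 7, 2 and 42 without library 8, 27 and 78 without the trend, 132 and 287 with robust fitting, and 1636 and 1872 with the block. Some differences changed sign, none past the threshold. With each library left out, Atp5g1 ranged from -0.1247 to 0.0084, Cox4i1 from -0.0829 to 0.0297, Cox6b1 from -0.109 to 0.0278, Cox7a2 from -0.0138 to 0.1265, Cox7c from -0.1189 to 0.1024, Cox8a from -0.0044 to 0.1338, Ndufa4 from -0.0068 to 0.174, Ndufb2 from -0.0834 to 0.2062, Sdhb from -0.1012 to 0.0116 and Uqcrq from -0.1141 to 0.0621. Quantile normalization gave Cox4i1 0.032, Cox6b1 0.0133, Cox7c 0.0269 and Sdhb 0.0097. Leaving a library out leaves fewer samples; for the other settings the cause was not tested.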
